A study of Homo sapiens with 9 samples.

Results

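The mRNAs described here encode nuclear-encoded subunits of the 5 complexes of oxidative phosphorylation, chosen by name: 59 genes were listed, and 58 of them had windows in the count table, out of 29166 identifiers with at least 1 exon window. Of the 58, 30 were grouped under complex I, 4 under complex II, 7 under complex III, 10 under complex IV and 7 under complex V. NDUFA4 was placed in complex I here, although its protein is described as a subunit of complex IV. The values given for complexes I and IV rest on that placement. NDUFA6 was not analysed here. NDUFA3 carried 4 counts, all of them in MDH2 IP replicate 2, and did not pass the count filter, so that 57 genes were tested. All 9 libraries came from UV-cross-linked Huh7 cells, a human hepatocarcinoma line, with no genotype or drug differing between groups: 3 libraries from immunoprecipitation (IP) with an antibody against endogenous MDH2, the mitochondrial malate dehydrogenase of the tricarboxylic acid cycle, 3 from the size-matched input (SMI) and 3 from an IP with isotype-matched IgG. The 3 libraries of a group were described as independent replicates, while separate cultures were not stated, so that p-values measure the spread between these libraries.

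The respiratory chain moves electrons from NADH (complex I) and succinate (complex II) over ubiquinone to complex III, then over cytochrome c to complex IV, and the proton gradient built on the way drives the ATP synthase, complex V. A few core subunits are encoded by the mitochondrial genome. All others are made in the cytosol from nuclear mRNAs and imported, and complex II is made of nuclear-encoded subunits alone. MDH2 is a matrix enzyme that is itself made in the cytosol and delivers NADH to complex I.

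In eCLIP, reverse transcription stops at the base where a protein was cross-linked to the RNA. The values are counts of such stops in windows of 50 nt spaced 20 nt apart, so that 1 stop is counted in more than 1 window. Exon windows were summed per gene. Exon counts ranged from 3249974 to 5078220 in the MDH2 IP libraries, from 3651665 to 4657949 in the SMI libraries and from 506441 to 1134432 in the IgG IP libraries, and the lower depth of the IgG IP widens every interval that rests on it. Both IPs were amplified over more PCR cycles than the SMI per the labels, so that amplification and group cannot be told apart. All 10 hepatocyte markers passed the filter against SMI, as did 0 of 4 blood, 1 of 3 fibroblast and 1 of 3 endothelial markers. Levels below are in CPM, the counts scaled to a common library size of exon counts with TMM factors, log2 fold changes are from edgeR's quasi-likelihood test, and adjusted p values are from the same test after Benjamini-Hochberg adjustment over all genes, exons or windows tested.

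The respiratory chain mRNAs took a small share of the exon counts. They held 0.561%, 0.526% and 0.614% in the MDH2 IP libraries, 0.507%, 0.467% and 0.482% in the SMI libraries and 0.533%, 0.432% and 0.519% in the IgG IP libraries. The MDH2 IP libraries all lay above the SMI libraries, by 0.0816 percentage points (exact permutation test, two-sided, p = 0.1, the smallest that 3 against 3 libraries can give), while the IgG IP overlapped both. Measured against exon counts on protein-coding genes alone, the difference between MDH2 IP and SMI shrank to 0.00995 points and the libraries overlapped (0.646% ± 0.0491 against 0.636% ± 0.0215, SD, n = 3; exact permutation p = 0.8). By complex, in exon windows only the share of complex I lay higher in all MDH2 IP than in all SMI libraries, at 0.272% ± 0.0131 against 0.212% ± 0.00764 (SD, n = 3; exact permutation p = 0.1). With intron windows added to both sums, the MDH2 IP libraries lay above all SMI libraries for complexes I, III, IV and V, complex V for example at 0.0852% ± 0.00569 against 0.0662% ± 0.000455 (SD, n = 3). In exon windows complex I also lay higher in the IgG IP than in the SMI (0.255% ± 0.0306, SD, n = 3; exact permutation p = 0.1). NDUFV1, the member with the most counts in the MDH2 IP, made up 15.6% of the member counts there, 9.89% in the SMI and 14.2% in the IgG IP. Without NDUFV1 the members took 0.48% ± 0.0448 of the MDH2 IP and 0.437% ± 0.0186 of the SMI counts (SD, n = 3; exact permutation p = 0.2).

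**Figure D1:**
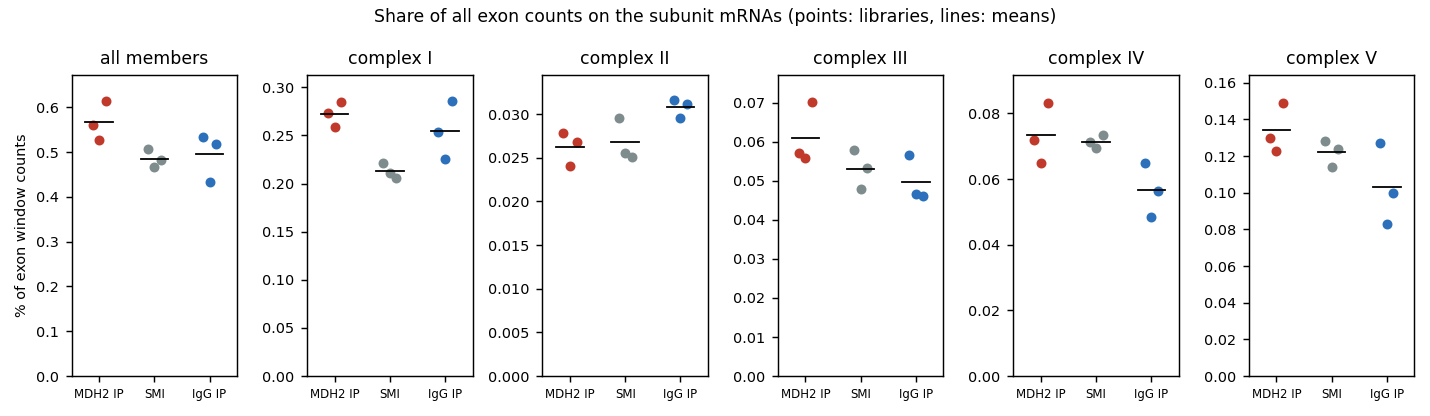
Percent of all exon window counts of a library that lie on the respiratory chain mRNAs, for all members and by complex. Points are libraries and lines are means of 3. The MDH2 IP libraries lie above the SMI libraries for all members and for complex I, and overlap them for complexes II to V.

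Gene by gene, 6 of the 57 respiratory chain mRNAs differed between MDH2 IP and SMI, 3 in each direction. That is 10.5% of the members, beside 19.3% of the 13923 genes tested (8.6% higher and 10.7% lower). NDUFV1, SDHA and NDUFA11 were higher in the MDH2 IP, and NDUFB5, SDHC and UQCRH were lower. The median log2 fold change over the members was -0.10, beside 0.00499 over all genes and 0.04 over protein-coding genes, with 23 members above and 34 below 0. In 11 members all MDH2 IP libraries lay above all SMI libraries and in 10 all lay below, which held for 19.9% and 18.9% of all genes tested. With total counts as library size, which moves the median of all genes to 0.17, 6 members were higher (NDUFA13, NDUFS8 and UQCRC1 in addition) and 2 were lower, beside 14.1% and 7.64% of all genes, with UQCRH no longer called (log2 fold change -0.54, adjusted p = 0.0921). The same 3 higher and 3 lower members were called by DESeq2. With libraries of the same replicate number fitted as a block, 8 members were higher and 10 lower, beside 2940 and 2875 of the 13923 genes. Whether the numbers mark pairs was not stated.

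**Figure D2:**
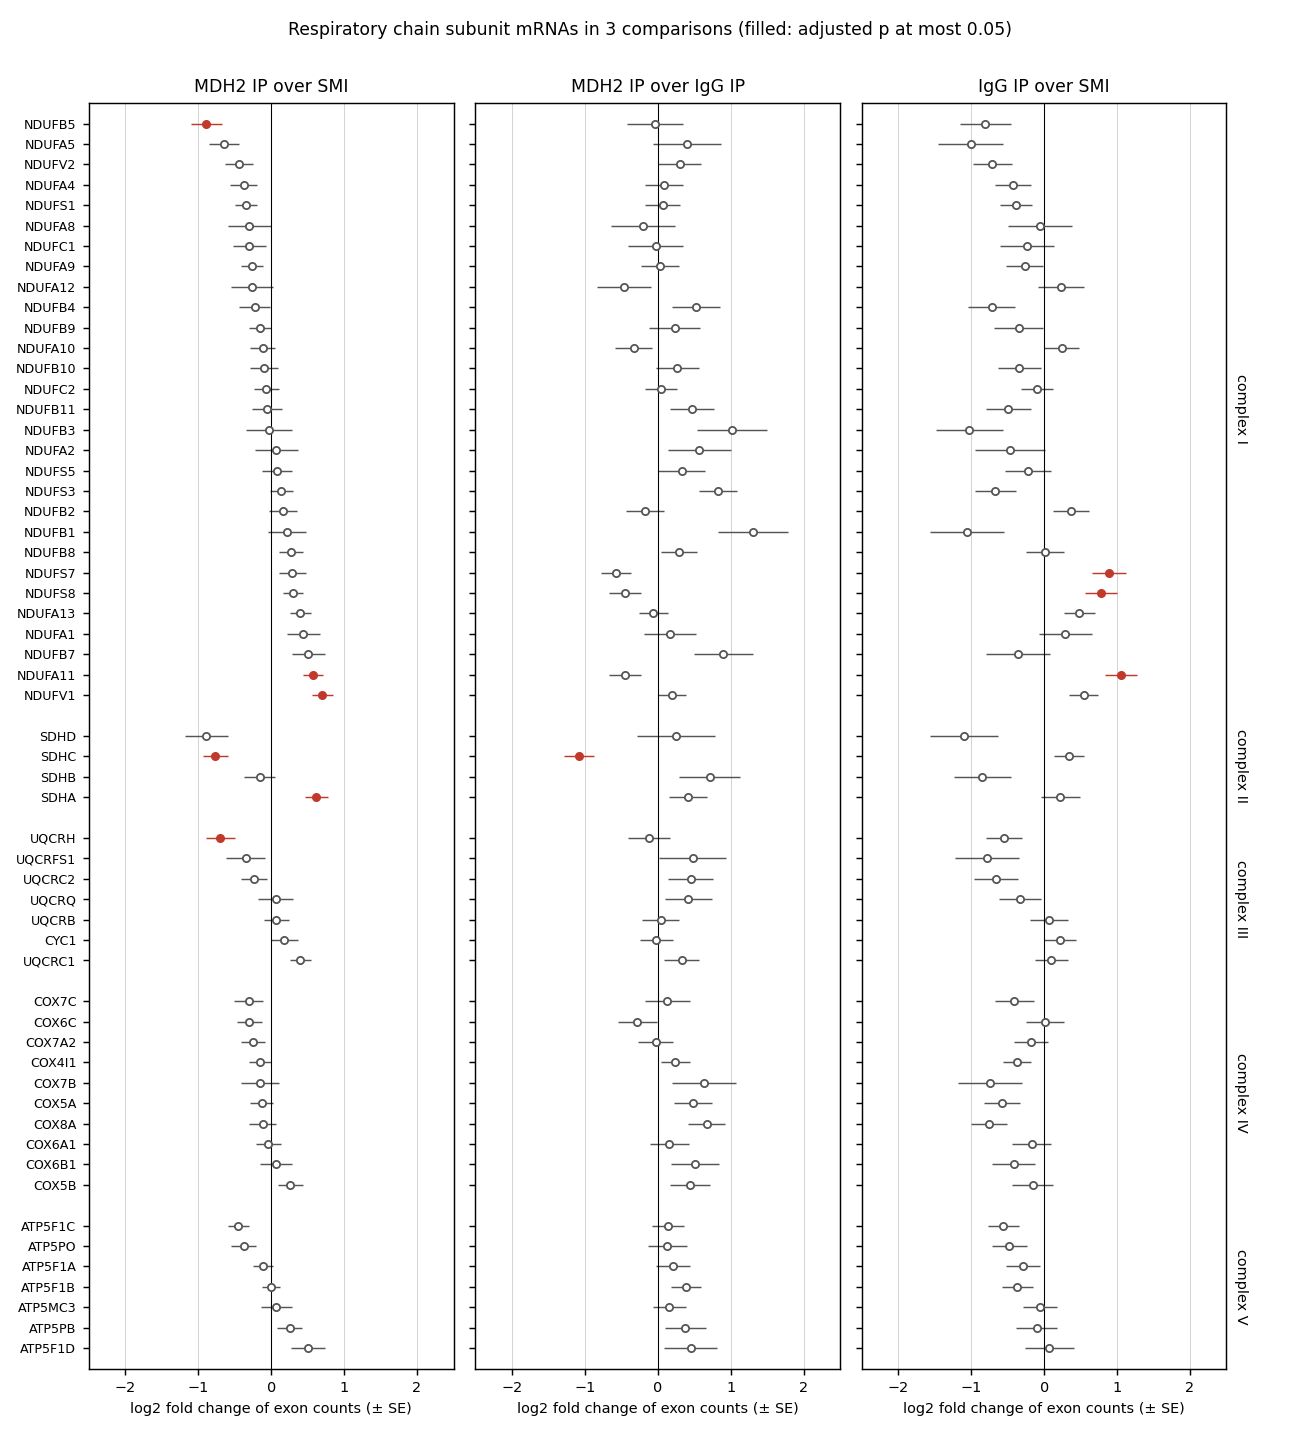
Log2 fold change of exon counts with its standard error for the 57 tested members, by complex, in the 3 comparisons. Filled points have an adjusted p of at most 0.05. MDH2 IP over SMI has 3 filled points on each side of 0, MDH2 IP over IgG IP has SDHC alone, and IgG IP over SMI has NDUFA11, NDUFS7 and NDUFS8.

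Complex I takes electrons from NADH through the flavin and iron-sulfur clusters of its core subunits, around which many accessory subunits are arranged. Of its 29 tested mRNAs, 2 were higher and 1 was lower in the MDH2 IP than in the SMI (median -0.06). NDUFV1 (chr11:67605653-67612554, plus strand, GRCh38) is the core subunit that binds NADH and the flavin. Its level was 860, 848 and 826 CPM in the MDH2 IP, 546, 530 and 446 CPM in the SMI and 686, 625 and 836 CPM in the IgG IP. The MDH2 IP was thus above the SMI in every library, with a log2 fold change of 0.70 ± 0.14 (SE, adjusted p = 0.00895), and the call held under every alternative run for genes, the omission of each single library included. The IgG IP libraries were also above all SMI libraries, without a call by edgeR (0.54 ± 0.20, SE, adjusted p = 0.0856) but with one by DESeq2 and with the replicate number as a block, and MDH2 IP and IgG IP overlapped (0.20 ± 0.19, SE, adjusted p = 0.662, 95% interval -0.21 to 0.60).

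NDUFA11 (chr19:5891276-5904006, minus strand), an accessory subunit of the membrane arm, had 108, 114 and 123 CPM in the MDH2 IP, 76.6, 72.4 and 77.5 CPM in the SMI and 120, 166 and 174 CPM in the IgG IP. Both IPs lay above the SMI, at 0.57 ± 0.14 for MDH2 (SE, adjusted p = 0.0206) and 1.05 ± 0.22 for IgG (SE, adjusted p = 0.0066). Its exons overlap those of another annotated gene on the same strand, and reads of a shared part cannot be assigned to one gene. The same holds for NDUFV1, NDUFA9, NDUFA13, NDUFB2, NDUFB8, NDUFC1, NDUFC2, NDUFS1, NDUFS3, NDUFV2, SDHD, COX6A1, COX8A, ATP5MC3 and ATP5PO. The call over SMI was lost without MDH2 IP replicate 1, SMI replicate 1 or SMI replicate 2 (0.54 to 0.63). NDUFB5 (chr3:179604690-179627647, plus strand), also an accessory subunit of the membrane arm, went the other way. It had 18.8, 21.5 and 23.1 CPM in the MDH2 IP and 33.9, 46 and 34.2 CPM in the SMI (-0.89 ± 0.21, SE, adjusted p = 0.0182), and its call was lost without those same libraries (-0.72 to -0.97) and with all 9 libraries in one fit (-0.85). In the IgG IP it had 23, 27.3 and 11.5 CPM, close to the MDH2 IP (-0.04 ± 0.38, SE, adjusted p = 0.977).

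The 6 tested core subunits of complex I had a median of 0.21 and the 23 accessory subunits of -0.07. NDUFS7 and NDUFS8, core subunits that carry iron-sulfur clusters, were highest in the IgG IP. NDUFS8 had 247, 258 and 297 CPM in the MDH2 IP, 199, 231 and 204 CPM in the SMI and 296, 310 and 456 CPM in the IgG IP. NDUFS7 had 79.4, 79.8 and 86.4 CPM in the MDH2 IP, 78.5, 52.9 and 65.5 CPM in the SMI and 118, 103 and 134 CPM in the IgG IP. Neither was called in the MDH2 IP over SMI (0.30 and 0.29, adjusted p = 0.173 and 0.283). NDUFS1, the core subunit with the most iron-sulfur clusters, and NDUFV2 had log2 fold changes of -0.35 and -0.44 with adjusted p of 0.132 and 0.14. Per exon window, NDUFV1 had the highest level of complex I in the SMI, at 2.54 CPM, followed by the accessory subunit NDUFS5 at 1.82 CPM, whose mRNA was at 0.08 in the MDH2 IP over SMI (adjusted p = 0.81).

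Complex II, succinate dehydrogenase, consists of the flavoprotein SDHA and the iron-sulfur protein SDHB in the matrix, held by the membrane anchors SDHC and SDHD. The 4 mRNAs spread widely, from -0.89 to 0.62. SDHA (chr5:218303-257082, plus strand) had 124, 121 and 112 CPM in the MDH2 IP, 87.7, 64.4 and 75.6 CPM in the SMI and 119, 72.3 and 61.4 CPM in the IgG IP. All MDH2 IP libraries were above all SMI libraries (0.62 ± 0.16, SE, adjusted p = 0.0249), while the IgG IP overlapped both. The call was lost when any single library other than MDH2 IP replicate 3 was left out, with log2 fold changes of 0.51 to 0.73, and with all 9 libraries in one fit (0.65). Pseudogene copies of SDHA also drew counts, SDHAP4 most of all with 216, 135 and 79 in the MDH2 IP and 92, 136 and 116 in the SMI, and reads with up to 10 alignments were kept by the authors.

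SDHC (chr1:161314381-161363206, plus strand) moved in the opposite direction. It had 102, 79.8 and 95.6 CPM in the MDH2 IP, 170, 159 and 132 CPM in the SMI and 179, 185 and 205 CPM in the IgG IP, so that the MDH2 IP lay below every library of both controls. The log2 fold change was -0.77 ± 0.17 against SMI (SE, adjusted p = 0.0119) and -1.08 ± 0.20 against IgG IP (SE, adjusted p = 0.0187). SDHC was the member called against both controls. These are separate libraries compared with the same 3 MDH2 IP libraries, and whether the controls share lysates was not stated. The count table held 520 exon windows of SDHC, while its exons in GENCODE release 44 cover 1902 nt, too few for that number of windows 20 nt apart. Part of the counted sequence is thus not annotated as SDHC exon in that release, and its share of the counts was not determined. Against SMI the call was lost when SMI replicate 1 was left out (-0.70, adjusted p = 0.0677), and against IgG IP when any MDH2 IP library or IgG IP replicate 3 was left out (-1.0 to -1.16). With intron windows added to the sum the value against IgG IP shrank to -0.47 (adjusted p = 0.0897). SDHD, the other anchor, had 6.77, 10.3 and 11.5 CPM in the MDH2 IP and 15.9, 15.4 and 20 CPM in the SMI, without overlap but without a call (-0.89 ± 0.29, SE, adjusted p = 0.0593). SDHB had 33.1, 25.1 and 39.1 CPM in the MDH2 IP and 34.4, 35.2 and 36.7 CPM in the SMI (-0.16, adjusted p = 0.619).

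Complex III passes electrons from ubiquinol to cytochrome c. Of its 7 mRNAs, UQCRH (chr1:46303698-46316776, plus strand), the hinge protein at the cytochrome c1 side, was lower, with 38.5, 30.8 and 48.8 CPM in the MDH2 IP against 67.7, 57 and 62 CPM in the SMI (-0.70 ± 0.20, SE, adjusted p = 0.0376). In the IgG IP it was at 37.1, 40.2 and 47.9 CPM, within the range of the MDH2 IP. Its call was lost in 7 of the 14 alternatives, more than for the other 5 called members, with log2 fold changes of -0.54 to -0.76. The core protein UQCRC1 had 173, 199 and 209 CPM in the MDH2 IP and 154, 140 and 136 CPM in the SMI, again without overlap and without a call (0.40, adjusted p = 0.0799). CYC1, cytochrome c1, overlapped between the groups (0.18, adjusted p = 0.558), as did the Rieske protein UQCRFS1 (-0.35, adjusted p = 0.406).

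No mRNA of complex IV, cytochrome c oxidase, or complex V was called in the MDH2 IP over SMI. At an unadjusted p under 0.05 there were 0 of 10 in complex IV and 1 of 7 in complex V, beside 3783 of 11551 protein-coding genes. DESeq2 called 0 in both. The complex IV values ran from -0.31 (COX7C) to 0.26 (COX5B). COX8A and COX6B1, small accessory subunits, had the most SMI counts per exon window in the complex, at 4.31 and 2.64 CPM. COX8A had 78.2, 84.7 and 104 CPM in the MDH2 IP, 108, 78.1 and 98 CPM in the SMI and 65.4, 41.8 and 53.7 CPM in the IgG IP (-0.12 for MDH2 IP over SMI, adjusted p = 0.676), and COX6B1 was at 0.06 (adjusted p = 0.872). ATP5F1B, the catalytic beta subunit of the ATP synthase, had the highest level per exon window of all members in every group. It was at 578, 583 and 620 CPM in the MDH2 IP, 607, 574 and 563 CPM in the SMI and 571, 346 and 395 CPM in the IgG IP, and the log2 fold change over SMI was -0.00401 with a 95% interval of -0.29 to 0.28. ATP5F1C, the gamma subunit of the central shaft, was at -0.45 (adjusted p = 0.0693), and ATP5F1D, the delta subunit beside it, at 0.50 (adjusted p = 0.153).

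**Figure D3:**
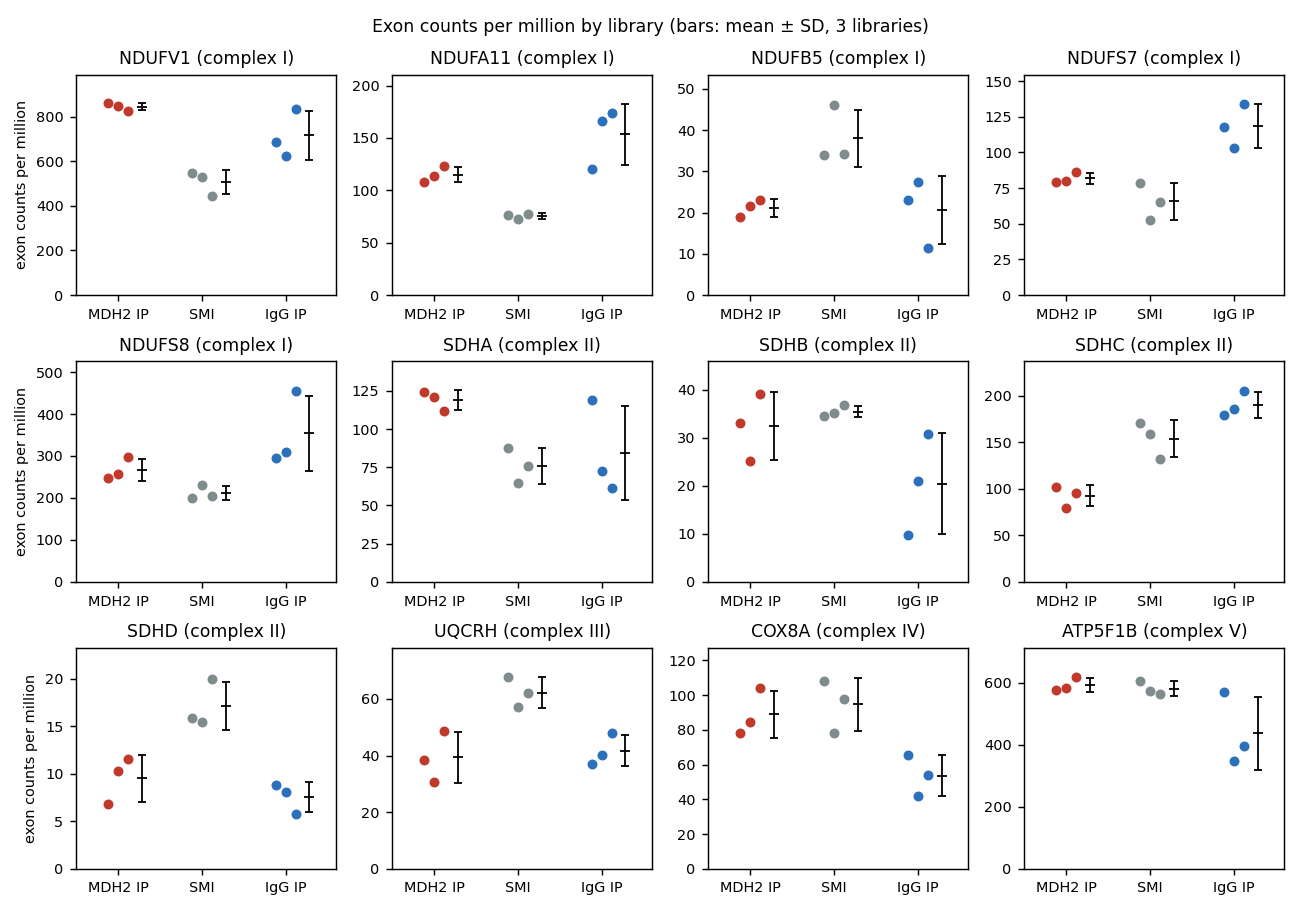
Exon counts in CPM in each library for the called members, complex II and the best-covered mRNAs of complexes IV and V. Points are libraries, bars are means ± SD of 3. NDUFV1, NDUFA11 and SDHA lie higher in the MDH2 IP than in the SMI, and NDUFB5, SDHC, SDHD and UQCRH lie lower.

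Against the IgG IP, 0 of the 57 members were higher and SDHC alone was lower, beside 0.302% and 1.8% of the 12573 genes tested (2.1% in either direction). At an unadjusted p under 0.05 edgeR had 6 members in either direction, beside 1549 of 10964 protein-coding genes. DESeq2 called 0 members higher, beside 138 of the 12573 genes. The median over the members was 0.23, beside 0.04 over all genes, with 42 members above and 15 below 0. In 8 members the MDH2 IP libraries all lay above the IgG IP libraries and in 3 all lay below (13.6% and 9.98% of all genes). NDUFB1 had the highest value, 1.30 ± 0.48 (SE, adjusted p = 0.209). By complex the medians were 0.17 for I, 0.33 for II, 0.33 for III, 0.34 for IV and 0.21 for V.

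The IgG IP was also compared with the SMI, which is the control of the MDH2 IP too. There, 3 members were higher, all of complex I, and 0 were lower, beside 9.58% and 5.98% of the 12788 genes tested. The calls were NDUFA11, NDUFS7 (0.89 ± 0.23, SE, adjusted p = 0.0226) and NDUFS8 (0.78 ± 0.22, SE, adjusted p = 0.0297). At an unadjusted p under 0.05 there were 17 members in either direction, beside 3084 of 10932 protein-coding genes. DESeq2 called 4 higher, NDUFV1 in addition, and 1 lower, COX8A, beside 1482 and 862 of the 12788 genes. The members' median was -0.33, beside -0.11 over all genes. In 7 members the IgG IP lay above the SMI in every library and in 19 below (16% and 21.9% of all genes). Each of these calls was lost when SMI replicate 1 was left out, and those of NDUFS7 and NDUFS8 also without SMI replicate 2, SMI replicate 3 or IgG IP replicate 3. NDUFS7 was also lost without the count filter (0.75).

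Within the transcripts, the counts of the MDH2 IP lay further towards the 5' end than those of the SMI. The exons of the windows are numbered along the transcript and are merged over all isoforms of a gene, and 267 exons of 57 members passed the filter. At exon level 1 was higher in the MDH2 IP and 11 were lower, beside 2.66% and 5.52% of the 58684 exons tested. Among the 54 members with at least 2 tested exons, the 3'-most tested exon had a lower log2 fold change than the 5'-most in 48 (88.9%), and the median difference was -0.78. The same held for 82.6% of 8420 protein-coding genes, with a median difference of -0.77. The medians of the members were 0.24 for the 5'-most, -0.16 for the exons between and -0.58 for the 3'-most exons, beside 0.42, 0.06 and -0.37 for protein-coding genes. Of the 54 3'-most exons of members 6 were lower, beside 20.4% in protein-coding genes, where 2.07% were higher. Of the 156 exons between, 1 was higher and 3 were lower, beside 2.07% and 1.65%, and of the 54 5'-most exons 1 was lower, beside 5.5% higher and 0.748% lower in protein-coding genes.

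Summed over the members, the 3'-most exons took 49.7%, 48.2% and 48.7% of the counts of both end exons in the MDH2 IP, 60.8%, 62.5% and 64.4% in the SMI and 55%, 55.6% and 54.4% in the IgG IP. The 3 groups did not overlap in any pair (exact permutation p = 0.1 each), and leaving out NDUFV1 changed no order. For all protein-coding genes the shares were 69.6% in the MDH2 IP, 69.8% in the IgG IP and 78.2% in the SMI, where the IPs overlapped. These exon classes were examined after the exon counts had been seen.

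**Figure D4:**
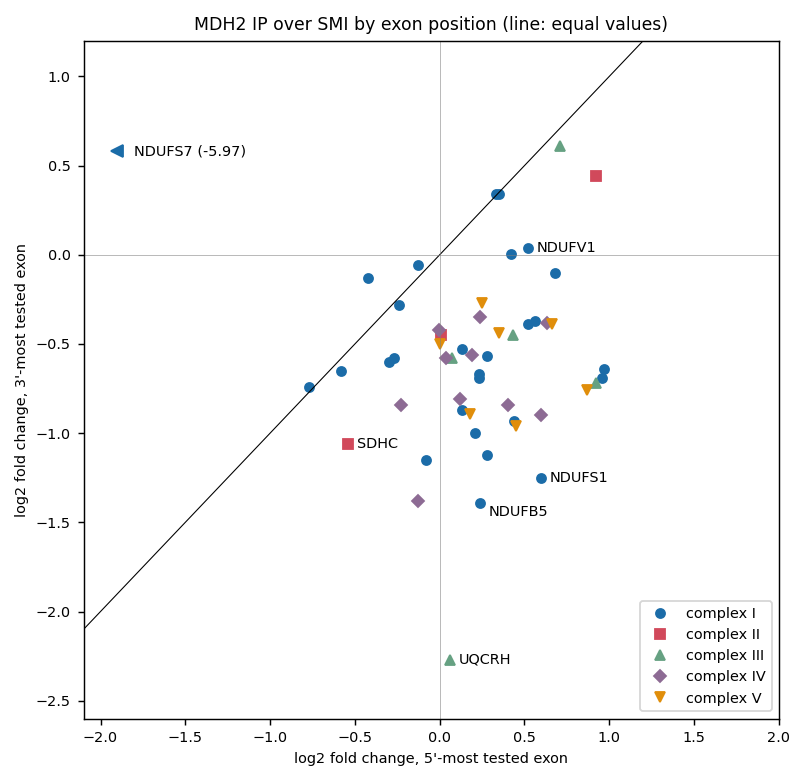
Log2 fold change of MDH2 IP over SMI in the 5'-most and 3'-most tested exon of each of the 54 members with at least 2 tested exons. The line marks equal values, and NDUFS7 is drawn at the left edge with its value printed. 48 of the 54 members lie below the line.

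Among the 3'-most exons, exon 4 of UQCRH had the lowest log2 fold change. It had 40, 12 and 25 counts in the MDH2 IP and 100, 90 and 111 in the SMI (-2.27 ± 0.34, SE, adjusted p = 0.000454), and its IgG IP counts were 5, 8 and 5. Exon 8, the 3'-most tested exon of SDHC, had 441, 260 and 256 in the MDH2 IP, 519, 596 and 504 in the SMI and 175, 107 and 88 in the IgG IP (-1.06 over SMI, adjusted p = 0.0031, and -1.17 over IgG IP, adjusted p = 0.0187, where 1.25% of exons were lower). NDUFS1 exon 20 fell by 1.25 on the log2 scale although the whole gene was not called, with 254, 212 and 189 counts against 385, 416 and 494 (adjusted p = 0.000812). In SDHD, exon 6 was the single exon that passed the filter (-2.21, adjusted p = 0.00205). The other lower exons were those of NDUFB5 (exon 6), NDUFA4 (exons 4 and 5), NDUFC2 (exon 3), COX5A (exon 5) and UQCRC2 (exon 13), at -1.0 to -1.64. In the IgG IP over SMI, which shares the SMI libraries that chose these exons, exon 5 of COX5A, exon 5 of NDUFA4, exon 6 of SDHD and exon 4 of UQCRH had adjusted p of 0.0324, 0.022, 0.0429 and 0.0324. There 4.78% of all exons were called lower, a share that is no baseline for exons chosen on the same SMI libraries.

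The single higher exon was exon 4 of NDUFV1, with 2489, 1810 and 1508 counts in the MDH2 IP, 854, 1102 and 899 in the SMI and 378, 233 and 258 in the IgG IP (0.74 ± 0.17 over SMI, SE, adjusted p = 0.0118). It was at 0.16 over IgG IP (adjusted p = 0.823). Without MDH2 IP replicate 1 or SMI replicate 1 the number of higher member exons was 0, beside 505 of 51377 and 556 of 55995 exons.

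Exon 1 of NDUFS7 stood apart from the 5' trend. It had 54, 30 and 35 counts in the SMI, 2, 0 and 0 in the MDH2 IP and 0 in each IgG IP library (adjusted p = 4.59e-05 for MDH2 IP over SMI). This exon passed the filter through the SMI libraries alone, the group in which it was high. With any single SMI library left out, the exon no longer passed the filter and was not tested. Its absence from the calls there thus does not show whether the call was stable. Scaled to library size, the SMI level was at least 7.45-fold higher than that of the IgG IP, taking 3 counts over the group as the floor for a count of 0. The whole of NDUFS7 nevertheless had a higher level in every IP library than the highest SMI library.

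At the level of single windows, 685 exon windows of 47 members passed the filter of 10 counts or more in 3 of 6 libraries. Enrichment over SMI was called where the adjusted p was 0.05 or less with a log2 fold change of 1 or more, and lower windows by the mirrored rule. In the members 14 windows were enriched and 13 lower, beside 3.19% and 8.61% of the 46792 exon windows tested and 4.04% and 10% of all 51108 windows. NDUFV1 held 11 of the 14, all in its exon 4. ATP5F1D (exon 1, window 4), NDUFS8 (exon 5, window 100) and SDHA (exon 6, window 384) held 1 each. Without MDH2 IP replicate 1 the number of enriched member windows was 0, beside 284 of all 39149 windows. Without SMI replicate 1 it was 1, beside 786 of 46200. With an MDH2 IP library left out, windows that had passed the filter through the MDH2 IP libraries alone were no longer tested. With IgG IP as control 0 member windows were enriched and 0 lower, beside 0.148% and 4.71% of all windows. Of 473 member windows, 52 had a one-sided unadjusted p under 0.05, and the share of all windows at that p is not given here. With total counts as library size, which moves the median of all windows from 0.05 to 0.62, 137 were enriched and 4 were lower, beside 23.8% and 4.66% of all windows.

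Exon 4 of NDUFV1 spans 93 windows, the number that a merged exon of 1885 nt at chr11:67610381-67612265 (GRCh38, plus strand) in GENCODE release 44 gives, with matching introns on both sides. By this match 4 of the 11 enriched windows lie in coding exons 5 and 9 of the 10 exons of the canonical transcript. The other 7 lie in its introns 5 and 6, in sequence that other annotated isoforms keep. The sequences of these stretches and of the SDHA and NDUFS8 windows are shown because they carry the enriched windows, with the 50 bases of the window with the highest log2 fold change of each stretch in capitals.
NDUFV1 coding exon 5, chr11:67610421-67610490: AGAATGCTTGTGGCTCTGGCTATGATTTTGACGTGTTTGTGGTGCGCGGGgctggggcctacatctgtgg
NDUFV1 intron 5, chr11:67610581-67610690: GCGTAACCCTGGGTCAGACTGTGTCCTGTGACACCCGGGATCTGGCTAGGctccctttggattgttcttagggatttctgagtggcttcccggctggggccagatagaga
NDUFV1 intron 5, chr11:67610881-67610950: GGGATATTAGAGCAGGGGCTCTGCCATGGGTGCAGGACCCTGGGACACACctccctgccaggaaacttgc
NDUFV1 intron 6, chr11:67611281-67611330: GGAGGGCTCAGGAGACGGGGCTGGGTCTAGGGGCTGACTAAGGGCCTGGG
NDUFV1 coding exon 9, chr11:67612121-67612190: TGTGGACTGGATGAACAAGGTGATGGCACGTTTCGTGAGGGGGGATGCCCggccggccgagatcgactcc
SDHA coding exon 5, chr5:225933-225982: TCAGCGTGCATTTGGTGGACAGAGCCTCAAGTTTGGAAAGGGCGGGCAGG
NDUFS8 intron 3, chr11:68032532-68032581: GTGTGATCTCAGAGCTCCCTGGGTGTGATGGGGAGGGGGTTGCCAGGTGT

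The windows with the most counts were those in the coding exons. Window 180 in coding exon 5 had 118, 84 and 60 counts in the MDH2 IP, 24, 40 and 31 in the SMI and 9, 4 and 5 in the IgG IP (1.27 ± 0.27, SE, adjusted p = 0.0119, and 1.24 over IgG IP without a call). Window 264 in coding exon 9 had 97, 78 and 67 counts in the MDH2 IP, 28, 34 and 34 in the SMI and 14, 10 and 7 in the IgG IP (1.16 ± 0.26, SE, adjusted p = 0.0164). The intron windows held fewer counts and larger folds over SMI. Windows 187, 188, 202, 203 and 222 had under 10 counts in every SMI library. They passed the filter only through the MDH2 IP libraries, so that being high in the MDH2 IP was a condition of being tested. Window 188 in intron 5 had 22, 17 and 16 counts in the MDH2 IP, 4, 3 and 4 in the SMI and 9, 4 and 5 in the much smaller IgG IP libraries, with a log2 fold change of 2.11 over SMI (adjusted p = 0.00772) and of -0.97 over IgG IP. Over the 7 intron windows the values over IgG IP ran from -1.18 to -0.03, and over the 4 coding windows from 0.35 to 1.24. Of the counts of exon 4 in windows wholly inside or wholly outside the canonical exons, 29.7%, 25.4% and 32% lay outside in the MDH2 IP, 19.9%, 14.6% and 22.8% in the SMI and 47.2%, 52.2% and 69.2% in the IgG IP, so that the 3 groups did not overlap. The single enriched window of SDHA, in coding exon 5, had 24, 14 and 11 counts in the MDH2 IP, 4, 7 and 6 in the SMI and 3, 3 and 0 in the IgG IP. This SDHA window also passed the filter through the MDH2 IP libraries alone.

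**Figure D5:**
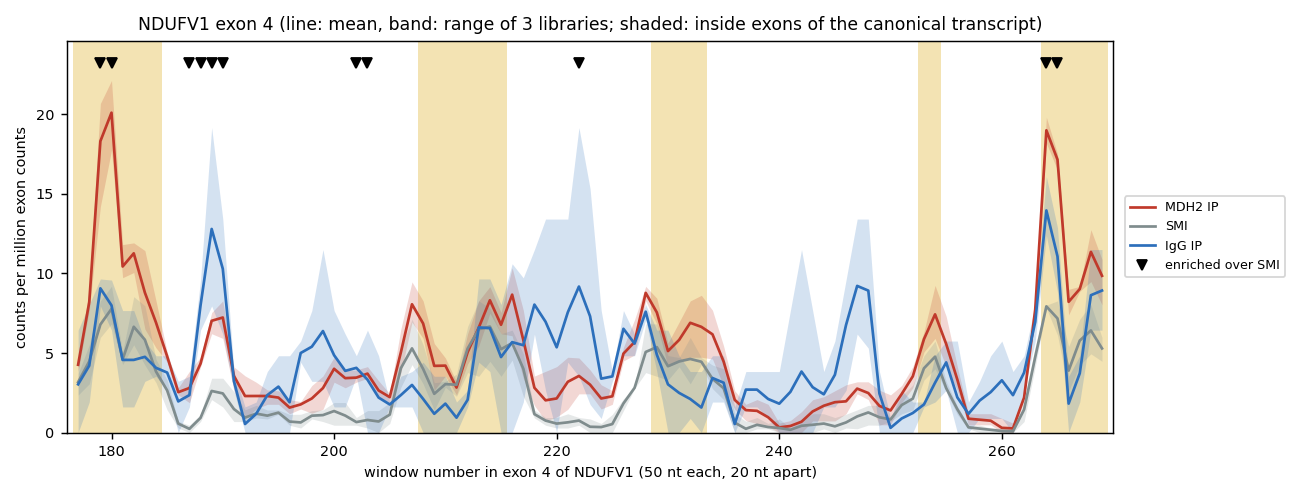
Counts in the 93 windows, scaled to the exon counts of each library, of exon 4 of NDUFV1. Lines are means and bands the range of 3 libraries, shading marks windows wholly inside exons of the canonical transcript, and triangles mark the 11 windows enriched over SMI. The MDH2 IP has its highest values in the first and last shaded stretch, where it lies above the SMI, while the IgG IP is high in the last shaded stretch and in unshaded introns.

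The 13 lower windows lay on 6 members: UQCRH (4), COX4I1 (3), NDUFA4 (2), NDUFS7 (2, in exon 1), ATP5F1C (1) and NDUFC2 (1). Window 415 in exon 4 of COX4I1, a nuclear-encoded subunit of cytochrome c oxidase, had 17, 4 and 5 counts in the MDH2 IP and 28, 45 and 32 in the SMI (-2.20 ± 0.39, SE, adjusted p = 0.000421), though the whole gene was at -0.16 (adjusted p = 0.504). MDH2 IP replicates 2 and 3 were under 10 counts there. The window thus passed the filter through the SMI libraries, the group in which it was high.

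Windows annotated as introns of the members held 19.2%, 17% and 17.3% of their counts in the MDH2 IP, 25.2%, 23% and 26.1% in the SMI and 26.6%, 34.4% and 35.9% in the IgG IP, without overlap between groups (exact permutation p = 0.1 each). The means over protein-coding genes were 44.7%, 57.7% and 66.8%. When exon and intron windows were summed, 14 members were higher and 4 lower in the MDH2 IP than in the SMI, beside 16.4% and 17.9% of all genes (members' median 0.19, all genes -0.01). Against the IgG IP that sum gave 10 higher members, among them NDUFV1, ATP5F1B, COX4I1, COX5A, COX5B and COX8A, and NDUFA10 alone lower, beside 4.64% and 7.77% of all genes. The exon result of 0 higher members thus did not hold with introns added. The added introns also change the counts of all other genes, to which the libraries are scaled, and the reason for the difference was not tested.

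The subunits encoded by mitochondrial DNA, which are made in the matrix, are the other source of the same complexes. All 13 were below 0 in the MDH2 IP over SMI, with a median of -0.51, and 7 were called lower (53.8%, beside 10.7% of all genes). MT-ND4, the complex I subunit with the lowest value, had 2240, 2510 and 2320 CPM in the MDH2 IP, 4130, 4640 and 4260 CPM in the SMI and 3620, 3840 and 3960 CPM in the IgG IP (-0.92 ± 0.14, SE, adjusted p = 0.00285). Of the exon counts on nuclear-encoded members and these 13 mRNAs together, the nuclear-encoded members held 30%, 26.5% and 30.1% in the MDH2 IP, 22.5%, 18.7% and 20% in the SMI and 20.4%, 17.8% and 20.5% in the IgG IP. The MDH2 IP lay above both controls in every library (exact permutation p = 0.1 each).

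Of 25 further nuclear-encoded subunits that were not members, 21 were tested against SMI, and ATP5ME was higher (0.81 ± 0.17, SE, adjusted p = 0.0109) and COX7A2L lower (-0.69 ± 0.17, SE, adjusted p = 0.0216), with a median of -0.11. Of 46 tested assembly factors, which build the complexes and are not part of them, 5 were lower (LYRM7, COX20, COX11, COX15 and NUBPL). That is 10.9% and close to the 10.7% of all genes. Their median was -0.18, and 12 had an unadjusted p under 0.05 in either direction, beside 3783 of 11551 protein-coding genes. LYRM7, a complex III assembly factor, had the largest change, with 8.27, 6.83 and 11.5 CPM in the MDH2 IP and 19.1, 22.3 and 32 CPM in the SMI (-1.50 ± 0.30, SE, adjusted p = 0.00859). FOXRED1, a complex I assembly factor, was the single one called against the IgG IP, at -1.31 ± 0.20 (SE, adjusted p = 0.00699). It was higher in the IgG IP than in the SMI (1.61 ± 0.22, SE, adjusted p = 0.000457) and at 0.27 in the MDH2 IP over SMI (adjusted p = 0.311).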

How the data were processed

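The authors sequenced eCLIP libraries of Huh7 cells, 3 each of MDH2 IP, size-matched input and IgG IP, removed duplicates by molecular identifiers, trimmed reads with cutadapt, aligned them to GRCh38 with STAR keeping up to 10 alignments, and counted cross-link sites with htseq-clip in windows of 50 nt every 20 nt on GENCODE release 23. The deposited values are these raw counts, not normalized. Reads that align to several copies of a gene can be counted at each.

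Exon windows were summed per gene and symbols taken from GENCODE release 44. Tests used edgeR 4.0.16 in R 4.3.3 (quasi-likelihood, TMM, two-sided, 10 counts or more in 3 of the 6 libraries of a comparison, Benjamini-Hochberg, called at an adjusted p of at most 0.05, no replicate block). Window p-values were one-sided and multiplied by the number of overlapping windows before adjustment. Shares were compared by exact permutation over libraries. On simulated data with 200 changed genes, MDH2 IP against SMI recovered 92% of 4-fold and 35% of 2-fold changes with 11 false calls over 13589 genes. Against IgG IP these were 84%, 16% and 3 over 12046 genes. For MDH2 IP over SMI they were 83%, 15% and 9 over 53440 exons, and 96%, 11% and 3 over 43699 windows. DESeq2 1.42.0, other size factors, no filter, all 9 libraries in one fit, non-overlapping windows, added introns and the omission of each library were tried as alternatives. The exon tests, the end shares, the intron shares and the omission of NDUFV1 were added after the data had been seen.

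Members and lists were chosen with earlier results of these data known. Named were all called members, the 2 members of each complex with the most SMI counts per exon window, all of complex II, members with an enriched window, members that complete a complex, and the called non-member subunits and assembly factors with the largest change (up to 3 each way per comparison). Members named for single exons or lower windows, COX15, NUBPL and MT-ND4 were named after their values had been seen. Windows were placed on GRCh38 by matching their numbers to merged exons of release 44, which succeeded for 15 of 27 called windows. Over windows that do not overlap, replicate pairs differed by a chi-square per degree of freedom of 2.72 to 7.39 over genes, where counting noise alone gives about 1, and no pair was treated as 1 library.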

Additional observations from a re-analysis of the deposited data

How the results depend on the processing

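NDUFV1 kept its call over SMI in all 14 alternatives, and every called member kept its direction in those run for it. The numbers of members higher and lower in the MDH2 IP over SMI were 3 and 3. With total counts as library size they were 6 and 2, beside 1966 and 1064 of 13923 genes. With introns added they were 14 and 4, beside 2801 and 3061 of 17057 genes. With all 9 libraries in one fit 1 was lower, beside 914 of 13978 genes. When 1 library was left out they were 1 to 3 and 0 to 3, beside 388 to 1055 and 652 to 1366 genes. Over IgG IP 10 members were higher with introns, beside 719 of 15492 genes. There 0 to 1 were lower when 1 library was left out, beside 41 to 266 genes. For IgG IP over SMI (3 and 0) 5 members were higher and 7 lower with introns, beside 2579 and 1789 of 15709 genes. When 1 library was left out 0 to 3 were higher, beside 502 to 1169 genes. There was 1 lower without a count filter, with DESeq2 or with non-overlapping windows, beside 1306 of 25874, 862 of 12788 and 567 of 10364 genes. With all 9 libraries 2 were lower, beside 1136 of 13978 genes. Enriched and lower member windows (14 and 13) numbered 137 and 4 with total counts, beside 12171 and 2380 of 51108 windows. With DESeq2 they were 4 and 7, beside 1023 and 3917. From at least 5 counts they were 8 and 22, beside 2179 and 8379 of 168338. With IgG IP as control they were 0 and 0, beside 45 and 1433 of 30427. When 1 library was left out they were 0 to 7 and 3 to 12, beside 284 to 1295 and 2053 to 4375 windows. At a log2 fold change of at least 2 they were 5 and 6. Member exons higher (1) numbered 23 with total counts, beside 5681 of 58684 exons. When 1 library was left out they were 0 to 2, beside 505 to 1170 exons. Member exons lower (11) were then 6 to 14, beside 1615 to 3054 exons. SDHC over IgG IP was -0.47 with introns. The causes were not tested.

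The replicate numbers were not taken to pair libraries in the main fit, since which lysate a number marks was not stated. The deviations of same-numbered libraries correlated at 0.0753, 0.472 and 0.486 between MDH2 IP and SMI. Each of these 6 libraries correlated best with its own number, and the SMI was an aliquot of lysate taken before IP. A pairing thus remains possible. With the replicate number as a block, 8 members were higher and 10 lower over SMI, beside 2940 and 2875 of the 13923 genes tested. In addition ATP5F1D, NDUFA13, NDUFB7, NDUFS8 and UQCRC1 were higher, and ATP5F1C, ATP5PO, NDUFA4, NDUFA5, NDUFS1, NDUFV2 and SDHD lower. For IgG IP over SMI 1 member was lower, beside 1252 of 12788 genes. Of the member windows 23 were enriched and 20 lower, beside 3777 and 6027 of all 51108 windows. Of the member exons 10 were higher and 33 lower, beside 4023 and 5378 of 58684 exons.

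Small differences in shares changed sign, in percentage points. The share of all members in IgG IP minus SMI (0.00954) was -0.0539 over protein-coding counts, -0.0453 with introns, -0.0153 without NDUFV1, and -0.00961 to 0.0408 when 1 library was left out. For complex II, MDH2 IP minus SMI (-0.000544) ran from -0.00138 to 0.000882 when 1 library was left out, above 0 without SMI replicate 1 or MDH2 IP replicate 2, MDH2 IP minus IgG IP (-0.00452) was 0.0025 and IgG IP minus SMI (0.00398) was -0.00385 with introns. MDH2 IP minus SMI over protein-coding counts was -0.00997 for complex IV (0.00197) and -0.00724 for complex V (0.0119), and for complex IV -0.00298 to 0.00619 when 1 library was left out, below 0 without MDH2 IP replicate 3. The IgG IP has the fewest counts, which limits what could be detected against it.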
